A study of Bos taurus with 40 samples.

Results

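Leptin (LEP) is the row ENSBTAG00000014911, 1 of the 24616 cattle genes counted in 40 RNA-seq libraries of muscle. The row was selected on its level in the 4 groups of libraries, in reads per 1000000 gene counts (CPM), so its levels and fold changes are given as a description and carry no p-value. Purebred Holstein-Friesian bulls, a dairy breed, either had their feed limited for the 125 days of period 1 to grow at a target of 0.6 kg a day and then ate freely for the 55 days of period 2, or ate freely at all times as controls. All ate 70% concentrate and 30% grass silage. Biopsies gave 10 libraries of restricted bulls and 10 of control bulls at day 120 of period 1, and 10 of the previously restricted bulls and 10 of control bulls at day 15 of period 2. One protocol text counts 20 bulls in all and another 20 per feeding group. The repeated numbers in the library titles were taken to mark the same bull at both biopsies.

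Leptin is a hormone that adipocytes make and secrete, and its level in blood is known to follow fat mass and recent feed intake. It acts through the leptin receptor, chiefly on hypothalamic neurons that control appetite and energy use, and in muscle of other mammals it is known to stimulate fatty acid oxidation. Muscle fibres are not its main source, and adipocytes lie between the fibres and bundles of a muscle. A biopsy is a mixture of cells, so fewer cells of a type and less RNA per cell cannot be told apart. The files name genes by Ensembl ID alone. The symbols of adipocyte, fibre and other cell markers, of the leptin receptor and of its signalling genes were therefore not matched to rows, and none of them is analysed here. The tissue label was not checked against its markers for the same reason.

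Libraries held 20758572 to 32968625 gene counts. 7 libraries stood apart with at most 11.2% of their reads outside genes, against at least 13.3% in the other 33. Their LEP levels were 0.606 and 0 CPM in restricted bulls 1 and 9 and 0.288 CPM in control bull 6 of period 1. In period 2 they were 0.0389 CPM in previously restricted bull 10 and 0.220, 3.57 and 0.399 CPM in control bulls 2, 3 and 8. These libraries thus held both high and low LEP values. The libraries with first code number 1, a number whose meaning the labels do not give, were all of control bulls of period 1, and their LEP values of 0.0809 to 0.918 CPM lay below the group's 4 highest.

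LEP was a rare transcript in these muscles, with 1368 reads in all 40 libraries together and more than 1 CPM in 6 of them. All 6 were control libraries, 4 of period 1 and 2 of period 2. 5 libraries had no LEP read, all of them of restricted bulls, 4 in period 1 and 1 in period 2. At their depth 0 reads allowed a level of up to 0.117 to 0.145 CPM (3 counts of the total, counting error only).

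Late in the restriction LEP had a median of 0.036 CPM in the muscles of restricted bulls, and values of 0 to 0.606 CPM. In control bulls of the same time the median was 0.730 CPM and the range 0.0809 to 17.7 CPM. The groups overlapped in part: every one of the 10 restricted values was under the control median, 7 were under all control values, and 5 control values exceeded all restricted ones. The means were 0.114 ± 0.196 CPM in restricted and 3.30 ± 5.51 CPM in control bulls (SD, n = 10 each). In reads, the 10 restricted libraries held 29, of which restricted bull 1 gave 14 and restricted bull 5 gave 9, and 4 libraries had none. The 10 control libraries held 917 reads, of which control bull 4 gave 525. The fitted log2 difference was -4.66 ± 0.95 (SE), or 25.4-fold lower in restricted bulls. Without control bull 4 it was -3.66, without restricted bull 1 it was -5.43, and without the 7 libraries that stood apart it was -5.45.

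At day 15 of full feeding the order of the feeding groups was the same and the gap smaller. The fitted gap shrank by 1.95 ± 1.32 (SE) log2 units, and by 0.94 without control bull 4 of period 1. Previously restricted bulls had a median LEP of 0.195 CPM and a range of 0 to 0.626 CPM. Control bulls had a median of 0.456 CPM and a range of 0.0378 to 8.09 CPM. The overlap was wider than in period 1: 9 previously restricted values were under the control median but only 1 was under all control values, and 4 control values exceeded all previously restricted ones. LEP averaged 0.210 ± 0.190 CPM across previously restricted bulls and 1.45 ± 2.55 CPM across control bulls (SD, n = 10 each). The fitted log2 difference was -2.72 ± 0.87 (SE), or 6.58-fold lower. It moved to -1.75 without control bull 6, whose library held 206 of the group's 363 reads, to -2.57 without the 7 libraries that stood apart, to -1.53 by limma with voom and to -1.64 with a factor for the first code number.

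**Figure D1:**
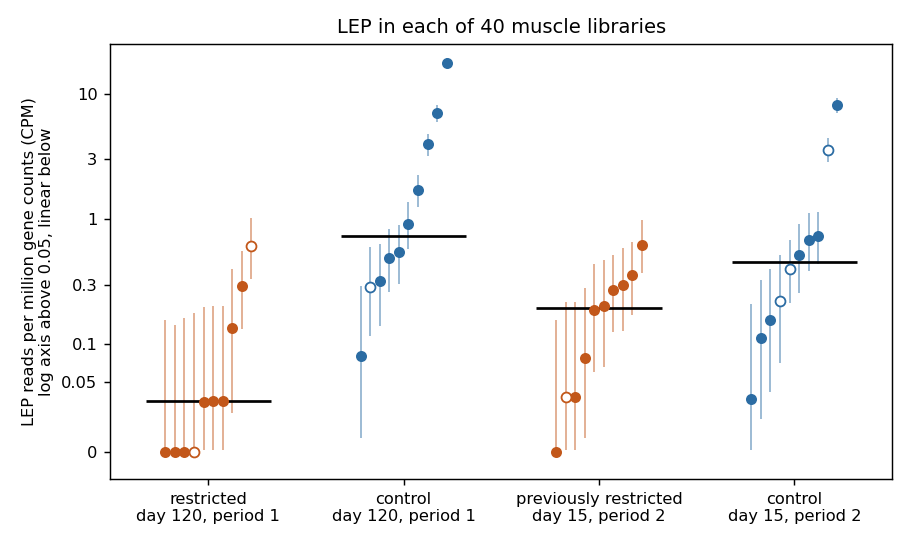
LEP level of each library in CPM, on an axis that is logarithmic above 0.05 and linear below. Points are libraries ordered within their group, vertical lines are exact 95% intervals for counting error, black bars are group medians, and open points are the 7 libraries with at most 11.2% of reads outside genes. No restricted or previously restricted library exceeds 0.626 CPM, while control libraries reach 17.7 and 8.09 CPM.

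Between the biopsies LEP was higher at day 15 in 7 of 10 restricted bulls, lower in 2 and without a read at both times in 1. Only for restricted bull 4 were the 95% counting intervals of both biopsies apart, and they overlapped for the other 9 bulls. Bull 4 had 18 reads (0.626 CPM) at day 15 and none at day 120. Restricted bulls 7 and 8 had 9 and 8 reads at day 15 and 1 read each at day 120. Restricted bull 6 had 10 reads at day 15 and 3 at day 120. For bulls 9 and 10 the difference was 2 reads and 1 read, and bull 3 had 1 read at both times, so its higher CPM came from depth. The 2 bulls with lower LEP at day 15 were those with the highest levels at day 120. Restricted bull 1 had 0.203 CPM at day 15 and 0.606 CPM at day 120, and restricted bull 5 had 0.186 and 0.290 CPM. The fitted log2 difference of day 15 minus day 120 was 0.77 ± 1.09 (SE), smaller than its error, and 1.57 without restricted bull 1 of period 1. Bulls as a replicate block gave 0.96 ± 1.21. Even at day 15 the previously restricted median of 0.195 CPM stood below the control median of either time.

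Single control bulls, which ate freely at both times, differed widely between their biopsies. LEP was higher at day 15 of period 2 in 5 bulls and lower in the other 5, and the counting intervals of both biopsies were apart in 7 of the 10. Control bull 4 had 3 reads (0.112 CPM) in period 2 and 525 reads (17.7 CPM) in period 1. Control bull 6 went the other way, with 206 reads (8.09 CPM) in period 2 and 7 reads (0.288 CPM) in period 1. Control bulls 7, 9 and 10 were at 0.0378, 0.157 and 0.728 CPM in period 2, against 0.918, 3.95 and 6.99 CPM in period 1. The fitted log2 difference of period 2 minus period 1 was -1.17 ± 0.73 (SE), -0.18 without control bull 4 of period 1 and -2.12 without control bull 6 of period 2. The fitted difference between the restricted and control time changes was 1.95 ± 1.32 (SE) log2 units, and leaving out single libraries moved it between 0.94, without control bull 4 of period 1, and 2.90, without control bull 6 of period 2.

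Whether a bull kept its LEP level was tested within each feeding group, since the order of bulls in a group was not used to choose the gene. On log2(CPM + 0.1), LEP at day 15 and at day 120 had a Pearson r of 0.25 in restricted bulls (permutation test, two-sided, p = 0.493, adjusted p = 0.493) and a Spearman rho of 0.30 (p = 0.395, adjusted p = 0.395; n = 10). In control bulls r was -0.46 (permutation p = 0.183, adjusted p = 0.274) and rho -0.49 (p = 0.156, adjusted p = 0.235; n = 10). Without the 2 bulls farthest from the median at day 120, r was 0.39 in restricted and -0.49 in control bulls. Neither relation was past an adjusted p of 0.05. Of the restricted values at day 120, 8 of 10 rested on at most 3 reads and 4 on none, so the test in restricted bulls had few measurable levels to rank and does not show that the biopsies were unrelated. The plot of both biopsies shows control bulls on either side of the line of equal levels.

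**Figure D2:**
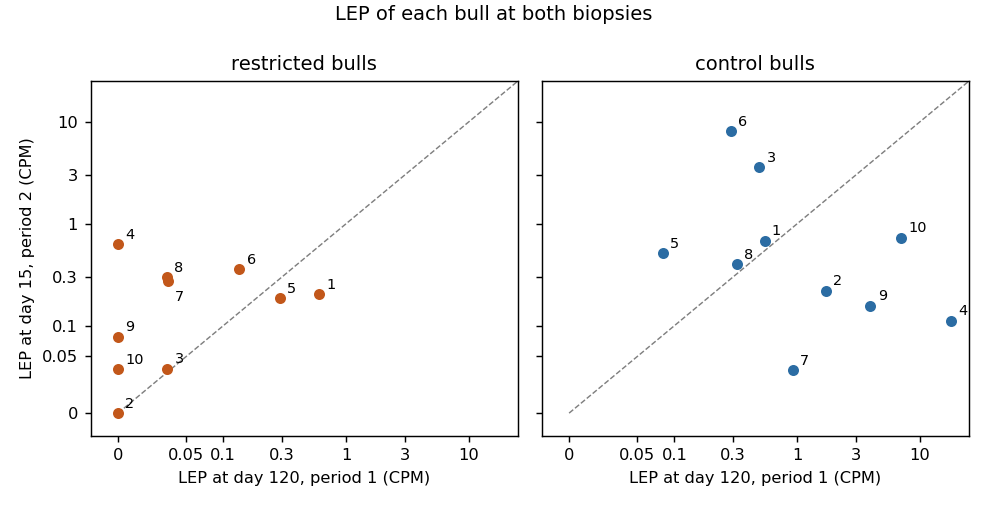
LEP of each numbered bull in CPM at day 15 of period 2 (vertical axis) and day 120 of period 1 (horizontal axis), on axes that are logarithmic above 0.05 and linear below. Restricted bulls are on the left and control bulls on the right, and the dashed line marks equal levels. 7 restricted bulls lie above the line and 2 below, against 5 and 5 control bulls.

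Among the 4 groups the order of means and of medians was the same: control bulls of period 1, control bulls of period 2, previously restricted bulls of period 2 and restricted bulls of period 1. Neighbours in this order overlapped, and the values of control bulls of period 2 covered those of all previously restricted bulls that had a read. The SD exceeded the mean in every group but the previously restricted one. The biological coefficient of variation that edgeR estimated for LEP within groups was 1.27, against a median of 0.306 in the 500 tested genes nearest to it in abundance. Only 3 of these 500 genes had a larger one. LEP passed the filter on low counts through the control groups: 7 and 6 control libraries of periods 1 and 2 reached the filter's level of 0.391 CPM, but only 1 restricted and 1 previously restricted library did.

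**Figure D3:**
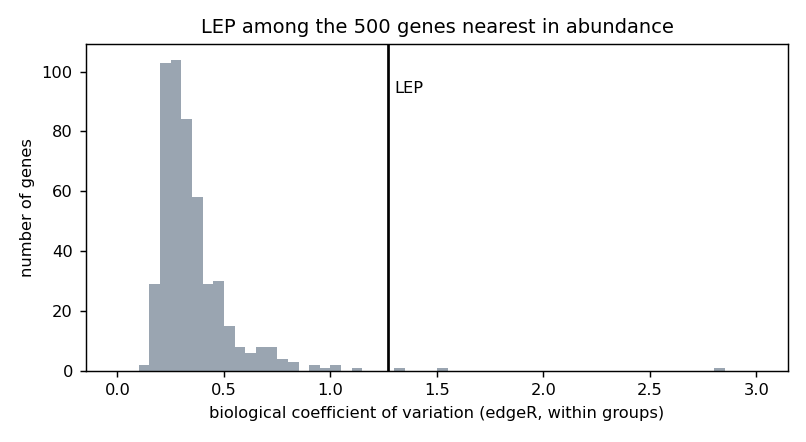
Histogram of the within-group biological coefficient of variation (edgeR, no unit) of the 500 tested genes nearest to LEP in mean abundance, with a vertical line at LEP. LEP lies at 1.27 and the median gene at 0.306, with 3 genes beyond LEP.

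The variation of LEP among bulls was shared with other genes. For each of the 12752 other tested genes the deviations of log2(CPM + 0.1) from the 4 group means were correlated with those of LEP over the 40 libraries, as a description. 29 genes had a Pearson r above 0.8, none was below -0.7, and the median over all genes was -0.0045. The 10 closest, called companion genes here, had r of 0.88 to 0.97, and 0.88 to 0.97 over the 33 libraries alone. Taken by feeding group, r lay between 0.90 and 0.98 in control and between 0.81 and 0.91 in restricted libraries. The companion genes also varied with each other, with a median pairwise r of 0.93. The closest was ENSBTAG00000001154, with r = 0.97. Without removing the group means, the closest over the 40 libraries was ENSBTAG00000007969, with r = 0.91, and 7 of the 10 genes were the same. The files pair these IDs with no symbol, and all points share library depth and bull.

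To see the relation in libraries that had not been used to find it, the 10 genes closest to LEP were chosen in the 20 control libraries and their mean log2(CPM + 0.1) was set against LEP in the restricted bulls. In the previously restricted bulls of period 2, Pearson's r was 0.93 (permutation test, two-sided, p = 0.00022, adjusted p = 0.00066) and Spearman's rho 0.89 (p = 0.0011, adjusted p = 0.0033; n = 10). Without the 2 libraries farthest from the median, r was 0.96, and over the 9 libraries outside the low share of reads it was 0.92. Together with the comparison of both biopsies, 3 relations were tested and adjusted over. In restricted bulls of period 1 the relation was not tested, because the libraries fell into clusters. This group was left out after its values were seen, and the adjustment does not cover it. 7 libraries had a mean level of the control-chosen genes of -0.06 to 0.72 and held at most 1 LEP read each. The other 3 had a level of 3.06 to 4.66 and held 26 LEP reads between them.

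The companion genes were chosen on deviations from the group means, and their own feeding differences were then tested. Libraries with extreme LEP, such as that of control bull 4, entered both the choice and the fitted group means. The choice and these tests were therefore not independent. Late in restriction 1 of the 10 was past the threshold of an edgeR quasi-likelihood adjusted p under 0.05, against 9.79% of the 12753 genes tested. All 10 had negative log2 fold changes, of -0.57 to -3.28 with a median of -1.52, where the median of all tested genes was -0.04. The 10 genes varied together, with a median pairwise r of 0.93, so their signs do not count as 10 separate observations. Without control bull 4 all 10 stayed negative, with a median of -0.66. None was as large in size as that of LEP, -4.66. LEP was selected on its level in these groups and the companion genes were not, so this contrast can follow from the choice. It was not tested. The 1 gene was ENSBTAG00000010564, at 1.74 ± 1.86 CPM in restricted bulls and 18.5 ± 28.2 CPM in control bulls (SD, n = 10 each). It fell by 3.28 ± 0.72 log2 units (SE; edgeR adjusted p = 0.0024, and 4.647e-05 to 0.0187 under the alternatives). ENSBTAG00000001154, the gene closest to LEP among bulls, had a median of 24.8 CPM and a range of 17.5 to 121.0 CPM in restricted bulls, against 43.0 CPM and 14.7 to 368.4 CPM in control bulls. The groups overlapped, and the fitted log2 difference of -0.98 ± 0.53 (SE) missed the threshold (edgeR adjusted p = 0.258). Without control bull 4 it was -0.29 (edgeR adjusted p = 0.78, and 0.113 to 0.78 over all alternatives). For ENSBTAG00000007969 the fitted log2 difference was -1.98 ± 0.76 (SE; edgeR adjusted p = 0.0935). It was -1.10 without control bull 4 (edgeR adjusted p = 0.385) and -2.93 without restricted bull 1 (edgeR adjusted p = 0.0129), the ends of the range of its adjusted p. DESeq2 called 2 of the 10, against 1459 of the 12753 genes, and limma with voom 3, against 1160. The count moved with restricted bull 1, which had the highest LEP and companion level of its group: without its library 5 of the 10 genes were past the threshold, and without all 7 libraries that stood apart also 5.

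At day 15 edgeR called 0 of the 10 companion genes, against 7.2% of all tested genes. DESeq2 and limma with voom also called 0, against 1154 and 850 of all genes. At an unadjusted edgeR p under 0.05 there was 1 of the 10, against 2971 of the 12753 tested genes. Their log2 fold changes were -0.46 to -1.66, with a median of -0.91. All were again smaller in size than that of LEP, -2.72, which unlike them was selected on its group levels. These values hung on control bull 6: without its library only 5 of the 10 were negative, with a median of -0.06, against -1.75 for LEP. ENSBTAG00000001154 was then at 0.0048, against -0.68 with all libraries, ENSBTAG00000010564 at 0.41, against -0.75, and ENSBTAG00000007969 at -0.66, against -1.39. By limma with voom 9 of 10 were negative, with a median of -0.34, and with a factor for the first code number 8 of 10, with a median of -0.21. The mean companion level, the average log2(CPM + 0.1) of the 10 genes, had a median of 2.46 in previously restricted bulls and 2.50 in control bulls of period 2. Its group means were 2.38 and 2.83. The LEP medians were 0.195 and 0.456 CPM, which is not a log2 scale, so the 2 contrasts are not on the same measure. In period 1 the mean companion level had a median of 0.90 in restricted bulls and 3.20 in control bulls, with group means of 1.64 and 3.42. Over time in the restricted bulls edgeR called 0 companion genes, against 19.2% of all tested genes. At an unadjusted p under 0.05 there was 1 of the 10, against 4022 of the 12753 genes. In that comparison 1, ENSBTAG00000010564, was called with each bull as a replicate block (edgeR adjusted p = 0.0398), against 2581 of the 12753 genes. With the block and a term for the 7 libraries that stood apart 0 were called, against 4571 genes. With that term all pairs of a bull's libraries correlated above 0.1. The adjusted p of ENSBTAG00000010564 was 0.0398 to 0.174 over all alternatives. Over time in control bulls 0 were called, against 0.0392%, and 0 had an unadjusted p under 0.05, against 2439 of the 12753 genes. For the difference between these time changes 0 were called, against 6.37%. Here 1 had an unadjusted p under 0.05, against 2802 of the 12753 genes. DESeq2 and limma with voom also called 0 in these last 3 comparisons.

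**Figure D4:**
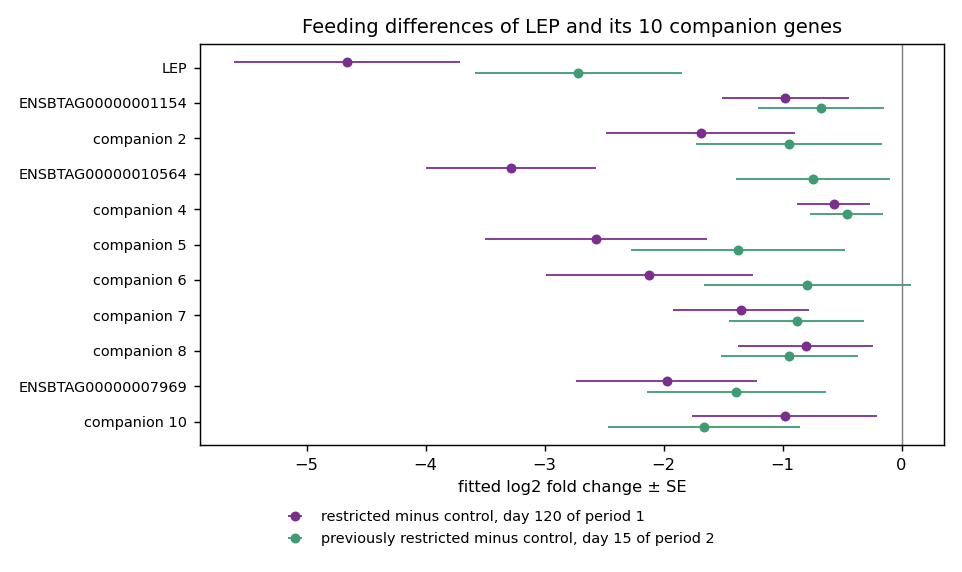
Fitted log2 fold changes (points) with SE (horizontal lines) of LEP and its 10 companion genes, for restricted minus control bulls at day 120 of period 1 and previously restricted minus control bulls at day 15 of period 2. Companion genes run from the highest to the lowest within-group r with LEP. LEP, at -4.66 and -2.72, lies farther from 0 than each companion gene in both comparisons. Only LEP was selected on its group levels, and the contrast was not tested.

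LEP was then read beside the companion level, library by library. Each restricted library was set beside the control library of the same period nearest in companion level, and kept if the gap was under 0.5 log2 units. In period 1, 4 restricted libraries had such a control library and LEP was lower in 4 of 4. Restricted bull 1 had 0.606 CPM of LEP at a companion level of 4.69, against 3.95 CPM at 4.34 in control bull 9. Restricted bull 6 had 0.136 CPM at 3.65, against 0.918 CPM at 3.79 in control bull 7. The other 2 pairs, of restricted bulls 4 and 7 with control bull 5, involved at most 2 LEP reads per library. These restricted values, 0 and 0.0366 CPM, were under all control values of period 1, so LEP would have been lower beside any control library. In period 2, 9 previously restricted libraries had a near control library, and LEP was lower in 7 of them, with a median difference of -0.86 on the log2(CPM + 0.1) scale over the 9. These matches used only 3 and 5 different control libraries, and the gene was chosen for its feeding difference, so no test was made.

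**Figure D5:**
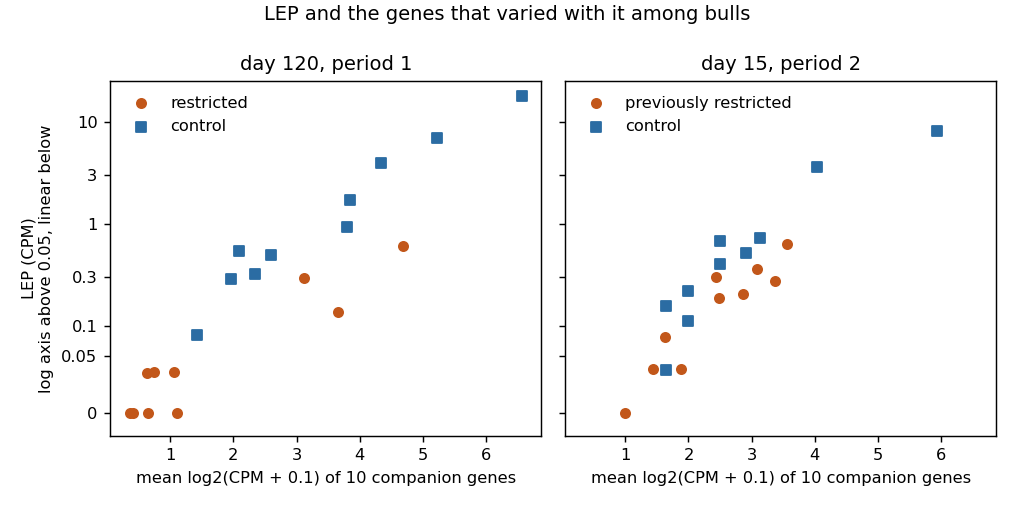
LEP in CPM (vertical axis, logarithmic above 0.05 and linear below) against the mean log2(CPM + 0.1) of the 10 companion genes (horizontal axis) in each library, restricted or previously restricted bulls as circles and control bulls as squares. The rise of LEP along the horizontal axis follows from how the companion genes were chosen. At companion levels of 3.12 to 4.69 the 3 restricted circles of period 1 lie below the control squares nearest to them along that axis.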

How the data were processed

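Single-end TruSeq mRNA libraries were made from Trizol-extracted muscle RNA, per the labels' protocols. HTSeq, TopHat, CASAVA 1.4, edgeR and the assembly UMD3.1 are listed in the submitters' processing notes, without roles. The authors deposited whole-number read counts per Ensembl ID, unnormalised, whose 92 spike-in rows were at 0 and whose rows without a gene were left out (10.0% to 18.7% of reads outside genes, 0.584% to 1.40% ambiguous). Strand handling is not given in the sources used here. The second deposited file of each library holds a normalised signal for 10882 (period 1) or 10977 (period 2) genes, which are exactly those over 1 CPM in at least 10 of the 20 libraries. LEP exceeded 1 CPM in 4 and 2 libraries and is in neither set, so its values come from the counts.

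CPM was taken over gene rows. All 40 libraries entered 1 fit with 4 group means in edgeR 4.0.16 (R 4.3.3; TMM scaling, filterByExpr with minimum count 10, robust quasi-likelihood F test, Benjamini-Hochberg adjustment), which left 12753 genes and was tested on simulated data. This fit had no term for the bull, so it treated the libraries of a bull as independent, also in the comparisons over time. The replicate block, which pairs them, was an alternative. DESeq2 1.42.0, limma 3.58.1 and the other settings named below were further alternatives. Correlations used 100000 permutations (NumPy 2.4.6). Replicates are separate biopsies per the labels. Same-numbered libraries of a bull correlated at 0.10 to 0.43 across genes in their deviations from group means after a term for the 7 libraries. All 20 pairs were above 0.1, but the lowest control pair lay below the highest value of different control bulls. The cut therefore does not tell same from different control bulls, and the pairing rests on the title numbers. Libraries of different bulls had medians of -0.03 and -0.02 and reached 0.18 and 0.33, in restricted and control bulls. Without that term 7 of 10 restricted and 8 of 10 control pairs were above 0.1. The lowest same-numbered values were then -0.235 and -0.139, and different bulls reached 0.63 and 0.64. The gene and the lists were chosen with earlier results of these data known. The symbol lists could not be matched to the IDs, so companion genes, the 10 with the highest within-group r, took their place, which was decided after the data were seen. IDs without symbols are printed only for the closest gene within groups, the closest over 40 libraries and the 1 companion gene past the threshold. Intervals and floors cover counting error only. The SE of an edgeR log2 difference is the size of that difference divided by the square root of its F statistic. For LEP, which was selected on its group levels, it is a description and not a test.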

Additional observations from a re-analysis of the deposited data

Results flagged for a closer look

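On the CPM scale, the gap between the highest library and the next as a share of the group's range was above Dixon's 95% critical value for LEP in 3 of 4 groups: restricted bull 1 in period 1 at 0.606 CPM, control bull 4 in period 1 at 17.7 CPM and control bull 6 in period 2 at 8.09 CPM. The same 3 libraries stood out for companion gene ENSBTAG00000001154, at 121.0, 368.4 and 242.3 CPM, and for ENSBTAG00000007969, at 23.1, 91.0 and 53.8 CPM. For ENSBTAG00000010564 control bull 4 of period 1 at 95.1 CPM and control bull 6 of period 2 at 59.4 CPM stood out. Previously restricted bull 7 stood out for ENSBTAG00000007969 at 13.2 CPM. By chance about 1 in 20 groups of normally distributed values would pass, but these CPM values are skewed and the genes were chosen because they vary together, so the 12 of 16 groups that passed cannot be read against that rate. On the log2(CPM + 0.1) scale, added after seeing the data, 0 of the 16 groups passed. The LEP ratios there were 0.304 in restricted bulls of period 1, 0.201 in control bulls of period 1 and 0.197 in control bulls of period 2.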

How the results depend on the processing

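The fitted LEP log2 differences kept their sign under every setting run. With single libraries omitted they were -5.43 to -3.66 (restricted minus control, period 1), -3.05 to -1.75 (period 2), 0.44 to 1.57 (period 2 minus 1, restricted), -2.12 to -0.18 (control) and 0.94 to 2.90 (difference of the time changes). With the bull as a replicate block, the last 3 were 0.96, -1.10 and 2.06. Depth limits LEP: restricted libraries held 0 to 18 reads each.

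Of all genes, 1249, 918, 2443, 5 and 812 were called in these 5 comparisons. In period 1 the feeding count was 2273 with a term for the 7 libraries with few reads outside genes, 2102 without them and 2207 with a factor for the first code number (965 to 1507 with 1 library omitted). In period 2 the term gave 1413 (567 without control bull 2 to 1363 without previously restricted bull 10). Over time in restricted bulls the term gave 3990, and 4571 with the replicate block (2071 to 2592). Over time in control bulls DESeq2 called 118, the term 33, total-count scaling 13, omitting the 7 libraries 90, the code number 8, the replicate block 3, and the block with the term 8 (2 without control bull 7 of period 2 to 298 without control bull 6 of period 1). At an unadjusted p under 0.05 there were 2439. The difference of the time changes gave 1630 with the code number and 1692 with the block and term (641 without control bull 3 to 1318 without previously restricted bull 10, both of period 2). The cause of these shifts was not tested. Scaling by total counts moved the median log2 difference of period 1 to -0.14, against -0.04, and 285 of 1386 calls were higher, against 573 of 1249. It gave 203 of 792 higher in period 2, against 418 of 918, and 1568 of 2254 over time in restricted bulls, against 1251 of 2443.

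Companion genes called in period 1 numbered 2 by DESeq2, 3 by limma with voom and 5 without the 7 libraries (1 to 5 with 1 library omitted, 5 without restricted bull 1). Over time in restricted bulls the replicate block gave 1, and 0 with the term (0 to 1, with 1 without restricted bull 1 of period 1), and the difference of the time changes 0 to 1, with 1 without control bull 6 of period 2. The block changed no other call on these genes. LEP was lower than in the near control library of period 1 in 1 of 1 with a gap of 0.25, 8 of 8 with a gap of 1 and 2 of 2 with genes chosen in control libraries. Of the 10 restricted values of period 1, 7 were under all control values and so lower beside any match. In period 2 LEP was lower in 6 of 8, 8 of 10 and 7 of 9 under the same gaps and genes. These gaps, the code number and the block with the term were chosen after seeing the data. Other settings for the symbol lists, and LEP per adipocyte marker, were not run, since no list could be matched to the gene IDs.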
